A study of Mus musculus with 12 samples.

Results

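Wnt proteins are secreted, lipid-modified ligands that bind frizzled receptors at the cell surface. In the beta-catenin branch a frizzled and an Lrp5 or Lrp6 co-receptor together stop the breakdown of beta-catenin, which then joins Tcf and Lef factors on DNA. Other branches act on cell polarity and calcium. Secreted frizzled-related proteins (Sfrp) and dickkopfs (Dkk) act outside the cell, the first on Wnts and the second mainly on Lrp5 and Lrp6, while R-spondins (Rspo) slow the removal of frizzleds through Lgr receptors. In muscle the pathway is known for its part in the behaviour of satellite cells, and in mesenchymal progenitors beta-catenin signalling is known to restrain fat cell formation.

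The genes described here are the protein-coding genes of the count table whose symbols are those of numbered Wnts, frizzleds, Sfrp1 to Sfrp5, Dkk1 to Dkk4 and Rspo1 to Rspo4. They number 41 of 54532 genes in the table: 19 Wnts, 10 frizzleds, 4 secreted frizzled-related proteins, 4 dickkopfs and 4 R-spondins. RNA was measured in whole lysates of the tibialis anterior, a muscle of the lower leg, of mice at 5 days after glycerol, which injures muscle and is followed by fat within it. There were 6 knockout libraries, with the genotype label "FAP no ppary", and 6 control libraries, labelled wild type. In the knockout, Pparg, the master regulator of fat cell formation, was removed by conditional deletion from FAPs (fibro-adipogenic progenitors), the mesenchymal cells of muscle that can become fat cells. Every muscle of both groups had received glycerol, and the labels give "129svlmJ" for all 12. The labels state no Cre driver, age or sex. They also leave unstated whether each library is its own animal, and every p-value therefore rests on the spread among these libraries, which may be technical.

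Libraries held between 15716056 and 29790720 counts. Pparg had 15.6 to 43.1 CPM (counts scaled to a common library size) in knockout libraries and 45.0 to 67.4 CPM in control libraries, for a log2 fold change of -1.12 ± 0.21 (SE) and an adjusted p of 0.0299 by edgeR's quasi-likelihood test with Benjamini-Hochberg adjustment. The call for Pparg held in 4 of 12 fits that left out 1 library (adjusted p 0.00769 to 0.0856), and its adjusted p was 0.274 with counts summed over pairs of alike libraries and 0.141 without control replicates 4 and 5. Its log2 fold change was -1.13 and -1.08 there. Markers of muscle fibres were present throughout, but their summed level was low in knockout replicate 6 (12911 CPM) and in control replicates 2 and 6 (15330 and 15189 CPM), against 27798 to 42627 CPM in the other libraries. The same 3 libraries had the lowest shares of mitochondrial counts, 2.66%, 3.06% and 3.92%. At 12 loci a gap of more than 3 log2 units split the libraries into high and low states. Across these loci, 5 pairs of libraries of the same group shared 83.3% to 100% of their states. Other pairs within a group shared at most 75%, and the 36 pairs of a knockout and a control library at most 66.7%. A pair was defined as libraries of a group closest to each other that shared at least 80% of states, so high sharing within pairs follows from the definition. The pairs were knockout replicates 1 and 2, 3 and 4, and 5 and 6, and control replicates 2 and 3, and 4 and 5. Summing counts over these pairs left 3 knockout and 4 control sets, and fewer units by themselves can lower the number of calls. With counts so summed, and without control replicates 4 and 5, no gene of the table passed the threshold. Every edgeR call made over all 12 libraries is thus lost in those fits. At an unadjusted p under 0.05 these fits held 1127 and 1168 genes.

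Of the 41 genes, 30 passed the filter on low counts and were tested: 12 Wnts, all 10 frizzleds, all 4 secreted frizzled-related proteins, 2 dickkopfs and 2 R-spondins. The 11 others had at most 44 counts over all 12 libraries. They were Wnt1, Wnt3, Wnt3a, Wnt7a, Wnt8a, Wnt8b, Wnt9b, Dkk1, Dkk4, Rspo1 and Rspo4. Wnt3a had no count in any library, which by counting error alone allows up to 3 counts, or 0.0990 to 0.206 CPM, in each. All 4 counts of Wnt7a, a ligand known to act on satellite cells in mice, came from knockout replicate 4. Dkk1, the best known soluble inhibitor of Lrp5 and Lrp6, had 2 counts in all.

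Levels per length, in FPKM (fragments scaled for gene length and library size, as deposited by the authors), were led by the soluble inhibitors and not by the ligands. Sfrp2 averaged 116 ± 45.4 FPKM in knockout libraries and 92.2 ± 29.8 FPKM in control libraries (SD, n = 6 each). Sfrp1 followed with 18.3 ± 6.69 FPKM in knockout libraries and 18.03 ± 5.67 FPKM in control libraries. These were the 2 members above 10 FPKM on average, and 19 members were above 1 FPKM. The most abundant frizzled by its mean, Fzd4, had 8.76 ± 1.17 FPKM in knockout libraries and 11.1 ± 1.76 FPKM in control libraries. The most abundant ligand was Wnt11, with 4.14 ± 1.47 FPKM in knockout libraries and 3.23 ± 0.66 FPKM in control libraries. Neighbours in these orders were often closer than their spread, such as Fzd4 and Fzd1 in knockout libraries, where Fzd1 had 8.38 ± 1.98 FPKM.

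**Figure D1:**
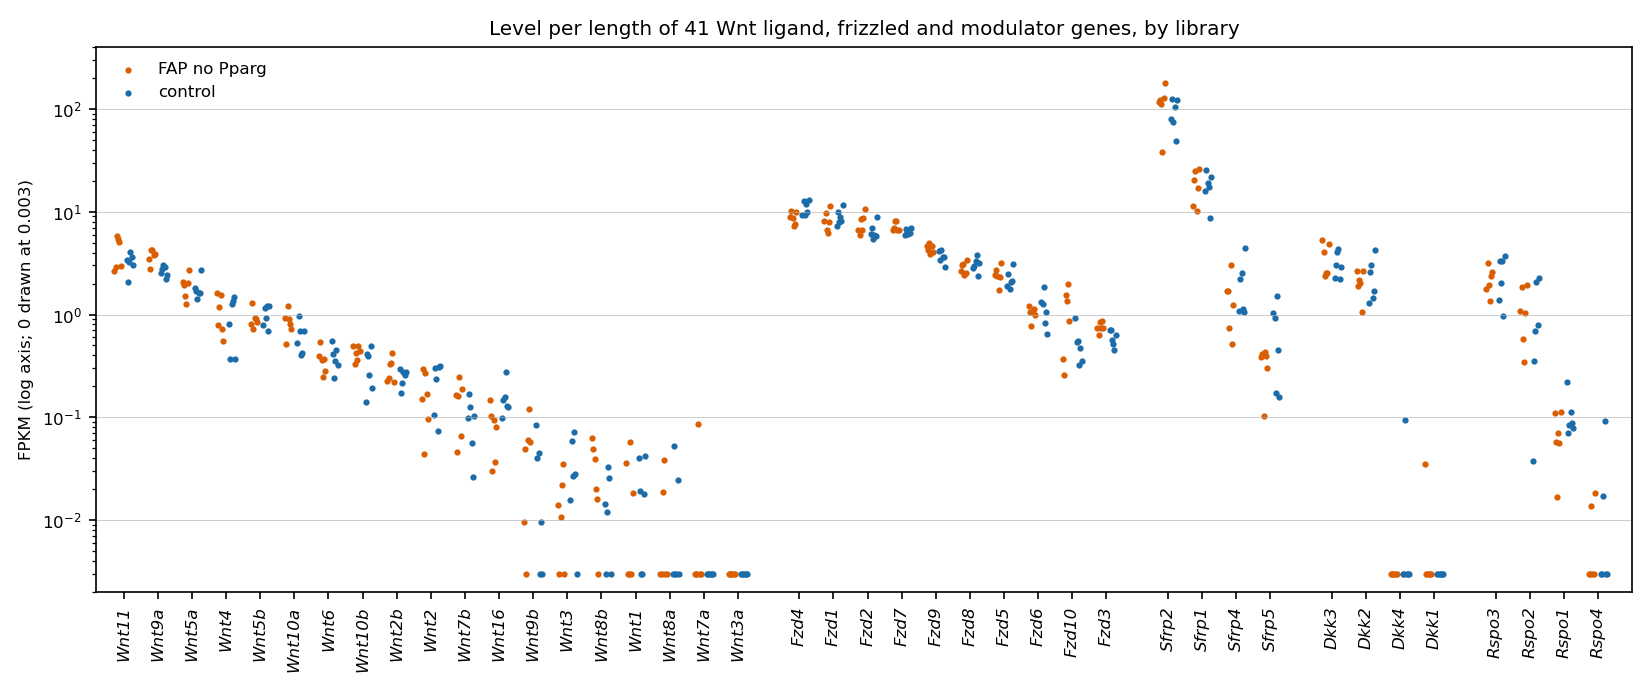
FPKM (log axis) of the 41 genes in each library, 6 knockout (orange, left of each name) and 6 control (blue); listed values of 0 are drawn at 0.003. Sfrp2 lies above the other genes in both groups. Sfrp1 is next by its mean, but its libraries overlap those of Fzd1 in both groups. The 11 genes that were not tested lie at or near 0.

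No member passed the adjusted threshold of 0.05 in edgeR's quasi-likelihood test, in which 0.799% of all 16393 tested genes did (131 genes). That count was 0 with summed pairs and without control replicates 4 and 5, 6 without knockout replicate 3, 9 without knockout replicate 4 and 12 without control replicate 4. Of all tested genes 0.0488% passed as higher in knockout libraries (8 genes) and 0.750% as lower (123 genes). The lowest adjusted p among the members was 0.0769, for Wnt9a. DESeq2 and limma-voom with quality weights each called 1 of the 30 members, Wnt9a again, with adjusted p of 0.00574 and 0.0244. Both called more genes in all than edgeR, 387 of 18231 tested genes with DESeq2 and 389 of 16393 with limma-voom. At an unadjusted p under 0.05 the edgeR test held 7 of the 30 tested members (23.3%), against 9.47% of all tested genes. With summed pairs it held 2 of 30 (6.67%, against 6.13% of all tested genes), without control replicates 4 and 5 also 2 (6.67%, against 6.96%), without knockout replicate 3 it held 3 (10%, against 7.55%) and without control replicate 4 it held 4 (13.3%, against 7.72%). Of the 7, 5 had higher means in knockout libraries (16.7%, against 3.79% of all tested genes) and 2 had lower means (6.67%, against 5.68%). For none of the 30 members were the knockout and control libraries fully apart, as they were for 1.43% of all tested genes. The median log2 fold change was 0.13 over the 30 members and -0.0013 over all tested genes, with 18 members positive and 12 negative. These shares are counts without a test, and the members were chosen with earlier results of these data known.

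**Figure D2:**
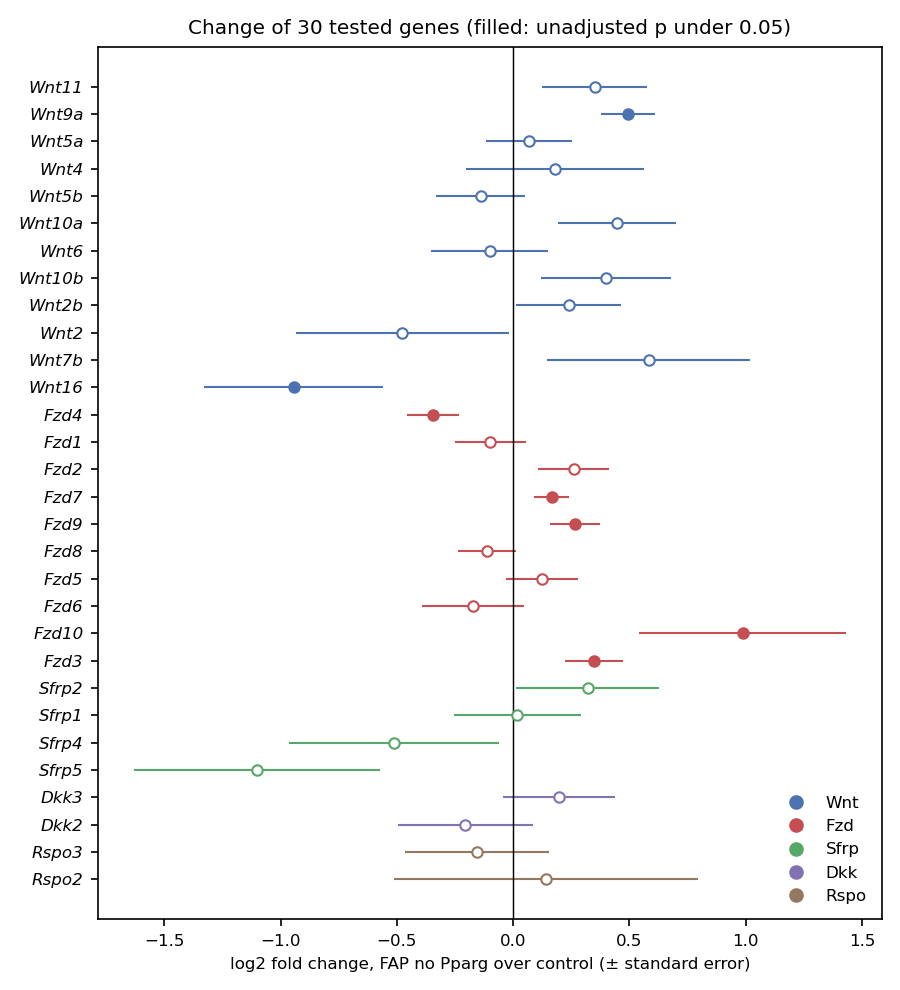
Log2 fold change, knockout over control, with its standard error for the 30 tested members, coloured by family and ordered within a family by level per length. Filled points are the 7 members with an unadjusted p under 0.05, and none passed the adjusted threshold.

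Among the ligands, Wnt9a had the lowest p. Wnt9a, known for its part in joint formation, lies on chromosome 11 (59306928 to 59333552, plus strand, GRCm38; ENSMUSG00000000126). Its lowest, median and highest values were 9.37, 12.9 and 14.3 CPM in knockout libraries and 7.46, 8.97 and 10.3 CPM in control libraries. All knockout libraries except replicate 2 lay above every control library. Wnt9a thus had a log2 fold change of 0.49 ± 0.12 (SE), at an adjusted p of 0.0769. Leaving out 1 library at a time gave adjusted p between 0.0196 and 0.193, and Wnt9a passed the threshold in 1 of these 12 fits, that without knockout replicate 2. With a library pair left out its adjusted p ranged from 0.0117, without knockout replicates 1 and 2, to 0.367. With counts summed over the library pairs it was 0.334.

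Wnt11, a ligand mostly tied to polarity and calcium branches, was split within the knockout libraries. It lies on chromosome 7 (98835112 to 98855195, plus strand). Knockout replicates 3, 4 and 5 had 24.4, 22.6 and 21.4 CPM, and knockout replicates 1, 2 and 6 had 10.9, 12.01 and 12.2 CPM, for a knockout median of 16.8 CPM. Control libraries ranged from 8.66 to 16.9 CPM with a median of 14.0 CPM. So 3 knockout libraries were above all 9 others, while the other 3 lay within the control range. Replicates 3, 4 and 5 were above all other libraries for 4 of the 30 members, Wnt11, Wnt2b, Fzd10 and Fzd3, and replicates 3 and 4 are one of the library pairs. These libraries were singled out by values already seen, those of Wnt11 among them. The share of all tested genes with this pattern was not counted, so the 4 may not be particular to the members. Over all 12 libraries its log2 fold change was 0.35 ± 0.22 (adjusted p 0.737).

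Wnt5a, another ligand of the branches without beta-catenin, had 10.02, 15.6 and 21.2 CPM (lowest, median, highest) in knockout libraries and 11.2, 13.1 and 21.5 CPM in control libraries. Its groups overlapped almost fully, with a log2 fold change of 0.07 ± 0.18 and an adjusted p of 0.973. Wnt4 had 2.32, 4.17 and 6.88 CPM in knockout libraries and 1.57, 4.40 and 6.24 CPM in control libraries, again with wide overlap (log2 fold change 0.18 ± 0.38, adjusted p 0.964). Wnt16, known in bone, was low. It had 0.132, 0.381 and 0.645 CPM in knockout libraries and 0.440, 0.606 and 1.23 CPM in control libraries, from 130 counts in all. Of the knockout libraries, 4 lay below every control library, for a log2 fold change of -0.94 ± 0.38 (adjusted p 0.413). On the log2(FPKM + 1) scale, which by construction understates low genes, it was -0.10, with limma-voom -1.32, without control replicate 4 it was -0.71 and without knockout replicates 1 and 2 it was -1.42.

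The other tested ligands were Wnt2, Wnt2b, Wnt5b, Wnt6, Wnt7b, Wnt10a and Wnt10b, all under 1 FPKM on average, with adjusted p between 0.652 and 0.969. Wnt10b is known from mouse models to restrain fat cell formation. It had 1.12, 1.47 and 1.69 CPM in knockout libraries and 0.488, 1.13 and 1.70 CPM in control libraries, so that every knockout library lay within the control range. Its close relative Wnt10a averaged 2.10 ± 0.56 CPM in knockout libraries and 1.55 ± 0.54 CPM in control libraries (SD, n = 6 each). Wnt5b shares its locus with Fbxl14 on the other strand, which had 6537 counts against 637 for Wnt5b, and whether strand was used in counting was not stated. Summed over all 19 Wnts, the FPKM averaged 14.2 ± 1.78 in knockout libraries and 11.8 ± 0.71 in control libraries, with overlapping ranges of 11.8 to 16.1 and 10.8 to 12.9.

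Of the 10 tested frizzleds, 5 had an unadjusted p under 0.05 in the edgeR test (50%, against 9.47% of all tested genes). They were 5 of the 7 such members over all 12 libraries. The count of such members was 2 with summed pairs, and also 2 without control replicates 4 and 5. Fzd4, a receptor for Wnts and for the unrelated ligand norrin, known for its part in blood vessels of the retina, lies on chromosome 7 (89404355 to 89413134, plus strand; ENSMUSG00000049791). It had 49.8, 59.0 and 68.6 CPM in knockout libraries and 63.0, 75.1 and 88.6 CPM in control libraries. Of the knockout libraries, 4 lay below every control library and the other 2, replicates 2 and 6, did not. This gave a log2 fold change of -0.35 ± 0.11 (adjusted p 0.231). Leaving out 1 library at a time gave adjusted p between 0.143 and 0.518, and the log2 fold change stayed between -0.39 and -0.29. Fzd4 made up 19.6 ± 1.96% of the summed frizzled FPKM in knockout libraries and 25.0 ± 1.94% in control libraries (SD, n = 6 each), with ranges of 17.1% to 22.7% and 22.5% to 27.2%. The summed frizzled FPKM itself was 44.8 ± 4.19 in knockout libraries and 44.2 ± 4.58 in control libraries.

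Fzd10 had the largest positive fold change of the 30 members, on few reads (669 counts in all). Knockout replicates 3, 4 and 5 had 5.06, 4.46 and 6.55 CPM, while replicates 1, 2 and 6 had 1.20, 0.842 and 2.81 CPM, for a knockout median of 3.63 CPM. Control libraries ranged from 1.06 to 3.08 CPM with a median of 1.68 CPM. The 3 high knockout libraries were the ones in which Wnt11 was high, and knockout replicate 2 was the lowest of all 12. For Fzd10 the log2 fold change was 0.99 ± 0.45 (adjusted p 0.502). Without knockout replicates 1 and 2 it was 1.42 with an adjusted p of 0.0317, in a fit that called 406 of 16714 tested genes. The largest adjusted p of Fzd10 without a library pair was 0.896.

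Fzd3, a frizzled of the polarity branch, had 8.14, 9.63 and 11.1 CPM in knockout libraries and 5.89, 7.70 and 9.23 CPM in control libraries. All knockout libraries except replicate 2 lay above every control library (log2 fold change 0.35 ± 0.12, adjusted p 0.312). Fzd9 had 8.92, 10.3 and 11.4 CPM in knockout libraries and 6.75, 8.41 and 9.76 CPM in control libraries, with 4 knockout libraries above every control library (log2 fold change 0.26 ± 0.11, adjusted p 0.417). Fzd7, the frizzled through which Wnt7a acts on satellite cells in mice, differed by little. It had 30.1, 31.0 and 37.6 CPM in knockout libraries and 27.5, 28.7 and 31.9 CPM in control libraries. Only knockout replicates 3 and 4 lay above the control range (log2 fold change 0.17 ± 0.08, adjusted p 0.514).

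**Figure D3:**
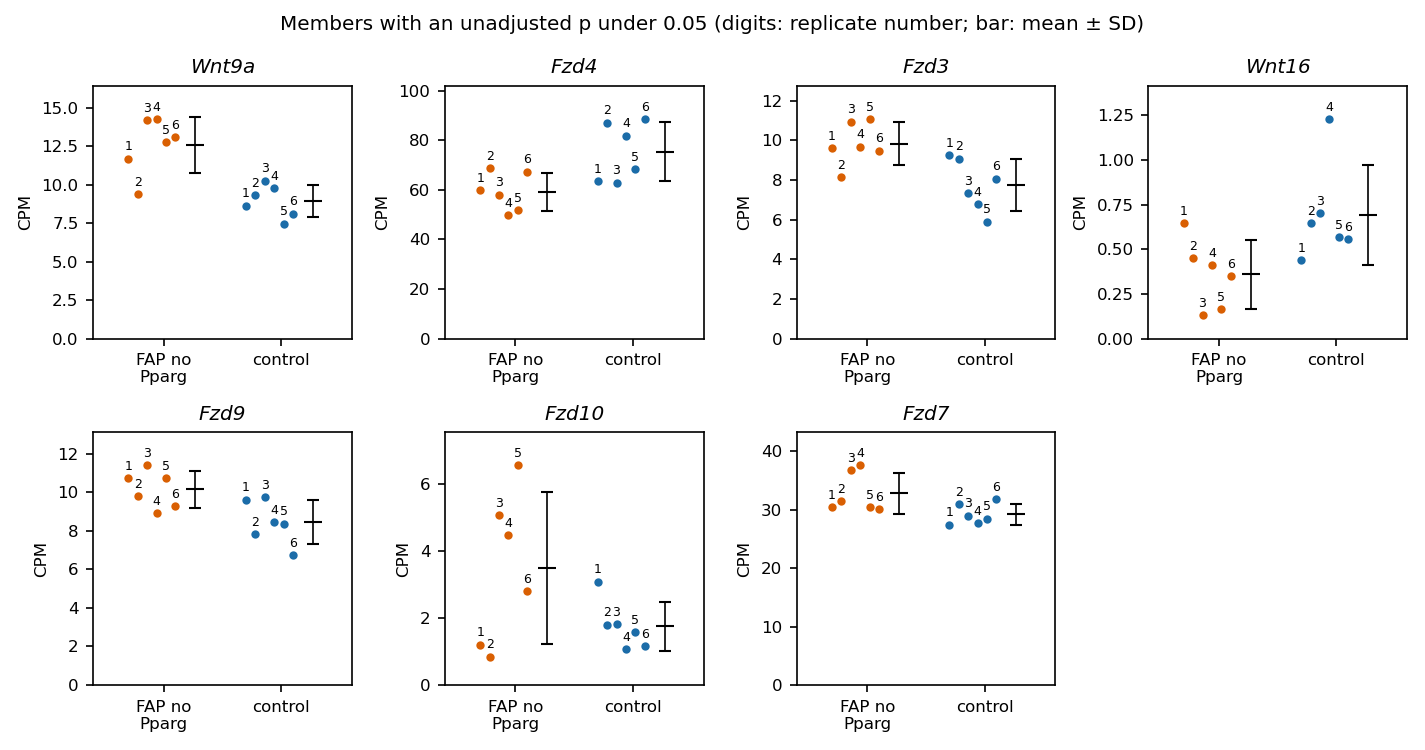
CPM in each library of the 7 members with an unadjusted p under 0.05, knockout left (orange) and control right (blue), with replicate numbers and the mean ± SD beside each group (n = 6). The groups overlap in all 7 panels, and in that of Fzd10 knockout replicates 3, 4 and 5 lie above the other 9 libraries.

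The remaining frizzleds were Fzd1, Fzd2, Fzd5, Fzd6 and Fzd8, with adjusted p between 0.678 and 0.938. Fzd1 had 26.3, 34.1 and 48.3 CPM in knockout libraries and 30.7, 36.1 and 49.1 CPM in control libraries. Its relative Fzd2 had 21.8, 28.0 and 39.3 CPM in knockout libraries and 20.0, 22.5 and 32.9 CPM in control libraries. Both pairs of groups overlapped over most of their range, and the log2 fold changes were -0.10 ± 0.15 for Fzd1 and 0.26 ± 0.15 for Fzd2.

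Among the inhibitors, Sfrp2 had 82.6, 259 and 387 CPM in knockout libraries and 107, 201 and 272 CPM in control libraries. The lowest and the highest value of the 12 libraries were both in the knockout, in replicates 4 and 6. Its log2 fold change was 0.32 ± 0.31 (adjusted p 0.875). Sfrp2 made up 83.8 ± 5.88% of the summed FPKM of its family in knockout libraries and 81.5 ± 2.26% in control libraries. Sfrp1 had 45.4, 82.0 and 114 CPM in knockout libraries and 38.1, 80.9 and 113 CPM in control libraries, and its groups covered the same range (log2 fold change 0.02 ± 0.27, adjusted p 0.999).

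Sfrp5, which is known as a product of fat cells, had the largest negative fold change of the 30 members, on 242 counts in all. It had 0.198, 0.747 and 0.824 CPM in knockout libraries and 0.305, 1.33 and 2.91 CPM in control libraries. Control libraries were spread widely, with replicates 1, 2 and 4 above the knockout range, replicate 5 just above it and replicates 3 and 6 inside it. This gave a log2 fold change of -1.10 ± 0.53 (adjusted p 0.549). The value was -0.30 on the log2(FPKM + 1) scale, -0.74 without control replicate 4 and -1.31 without control replicate 3. Sfrp4 had 2.18, 6.12 and 12.7 CPM in knockout libraries and 4.45, 7.06 and 18.8 CPM in control libraries (log2 fold change -0.51 ± 0.45, adjusted p 0.857).

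Dkk3, a member of the dickkopf family that differs from the others in not being a clear Lrp inhibitor, had 7.93, 11.2 and 17.9 CPM in knockout libraries and 7.51, 10.03 and 14.7 CPM in control libraries. Dkk2, which binds Lrp5 and Lrp6, had 3.98, 7.89 and 9.91 CPM in knockout libraries and 4.88, 8.09 and 15.8 CPM in control libraries. Neither pair of groups was apart (adjusted p 0.922 for Dkk3 and 0.932 for Dkk2). Of the R-spondins, which strengthen Wnt signals, Rspo3 had 4.25, 6.72 and 9.88 CPM in knockout libraries and 3.05, 8.29 and 11.6 CPM in control libraries (adjusted p 0.961). Rspo2 had 1.78, 5.47 and 9.96 CPM in knockout libraries and 0.195, 3.85 and 11.7 CPM in control libraries (adjusted p 0.991). Control replicate 6 was 59.7 times control replicate 1 for Rspo2, the widest ratio within a group among the 30 members. It rests on 4 counts in control replicate 1, and without that library the highest control was 6.34 times the lowest.

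Among the 30 tested members the extremes within a group often fell on the same libraries. How often they did so over all tested genes was not counted, so this may not be particular to the members. Knockout replicate 6 was the highest knockout library for 9 of 30 members, Sfrp1, Sfrp2, Fzd1, Fzd2 and Rspo2 among them, and control replicate 6 was the highest control library for 12 of 30, including Fzd4, Fzd1 and Rspo2. Both had low muscle fibre marker sums. Control replicate 2, with a sum as low, was the highest control library for 4 members. Knockout replicate 4, with the highest fibre sum, was the lowest knockout library for 11 members. Control replicate 5 was the lowest control library for 10, with a fibre sum of 33927 CPM, within the 32067 to 34103 CPM of control replicates 1, 3 and 4. The part of tissue composition in these values was not tested, and in whole muscle fewer cells of a type and less RNA per cell cannot be told apart.

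The libraries with high Wnt11 and Fzd10 also had high sums of satellite cell and myoblast markers. The 5 markers (Pax7, Myf5, Myod1, Cdh15 and Vcam1) summed to 412, 333 and 331 CPM in knockout replicates 3, 4 and 5, and to 271, 221 and 341 CPM in knockout replicates 1, 2 and 6, against 205 to 273 CPM in control libraries. All 5 had positive fold changes, none passed the threshold and none was at 0 in any library. Knockout replicate 6 had a high sum of these markers without high Wnt11. Another list was of differentiating myocytes (Myog, Mymk, Mymx, Myh3 and Myh8). Its sums in knockout replicates 3, 4 and 5 were above those of the other knockout libraries, but replicate 4 lay within the control range. It summed to 5357, 3789 and 5407 CPM in knockout replicates 3, 4 and 5, and to 3095, 3114 and 3735 CPM in knockout replicates 1, 2 and 6. Control libraries had 2506 to 3987 CPM for that list. The part of either list in the split of Wnt11 and Fzd10 was not tested. Markers of fat cells summed to 397 to 1634 CPM in knockout libraries and 2356 to 4112 CPM in control libraries; all 7 had negative fold changes and 1, Fabp4, fell (log2 fold change -1.63, adjusted p 0.0193). Fabp4 passed in 9 of 12 fits that left out 1 library, and its adjusted p was 0.269 with summed pairs and 0.0950 without control replicates 4 and 5. Markers of FAPs summed to 707 to 1094 CPM in knockout libraries and 1017 to 1385 CPM in control libraries; 6 of 7 had negative fold changes and 1, Col15a1, fell (log2 fold change -0.52, adjusted p 0.0208). Col15a1 passed in 8 of those 12 fits, and its adjusted p was 0.267 with summed pairs and 0.112 without control replicates 4 and 5. None of these 14 markers was at 0 in any library. Their part in the values of Fzd4, Wnt9a, Sfrp5 and the other members was not tested.

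**Figure D4:**
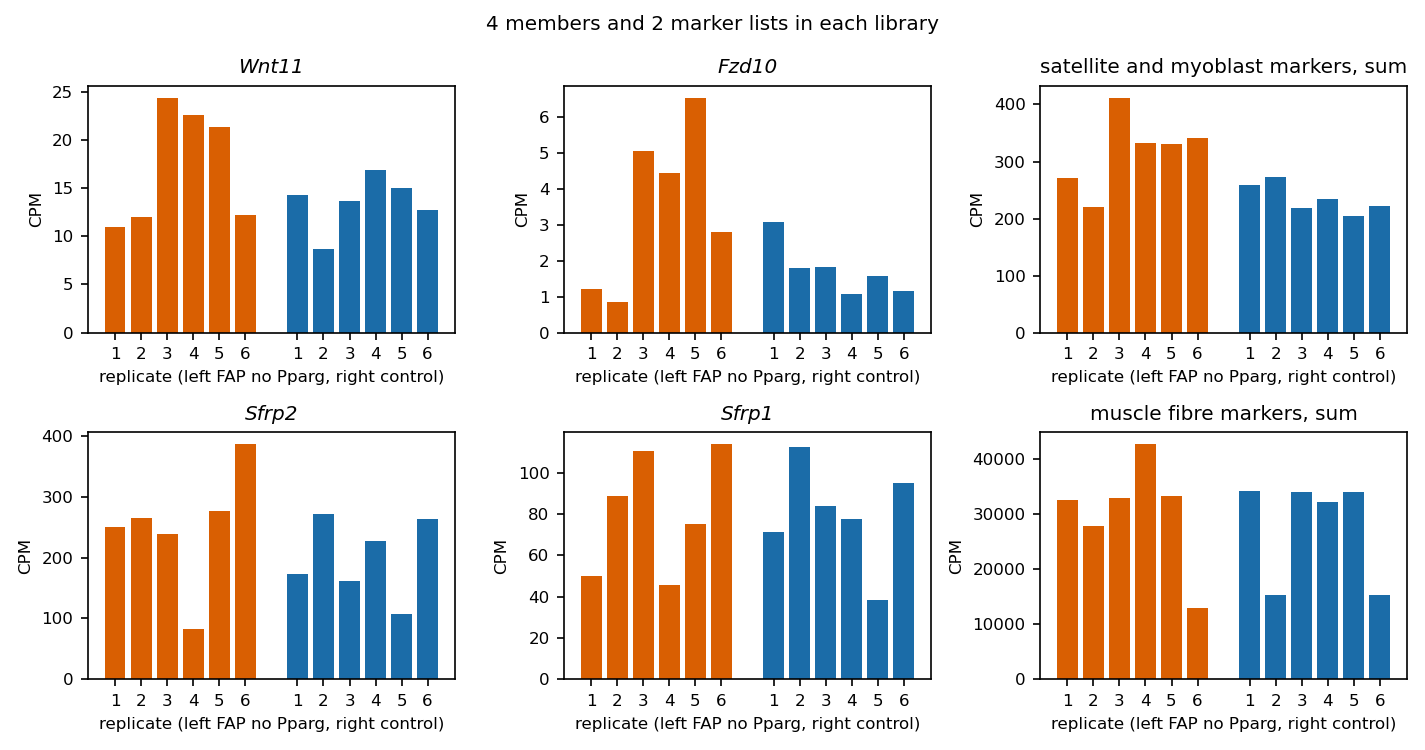
CPM in each library of Wnt11, Fzd10, Sfrp2 and Sfrp1 and the summed CPM of 5 satellite cell and myoblast markers and of 5 muscle fibre markers, with 6 knockout bars left (orange) and 6 control bars right (blue). Wnt11 and Fzd10 are high in knockout replicates 3, 4 and 5, and the fibre sum is low in knockout replicate 6 and control replicates 2 and 6.

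The promoters of the ligand and the frizzled with the lowest p, Wnt9a and Fzd4, and of the most abundant ligand, Wnt11, are shown. Each runs from 250 bases before to 50 after a gene's start as RefSeq gives it on GRCm38.p6, read on the plus strand. Capitals mark the core of the Tcf and Lef motif (CTTTG followed by AA, AT, TA or TT, on either strand) and the E box, CANNTG, which myogenic factors such as Myod1 can bind. Wnt11 has 2 RefSeq starts, and the upstream one is shown. The Wnt9a promoter holds 2 E boxes, that of Wnt11 holds 1 Tcf and Lef core, and that of Fzd4 holds neither motif in this window.
Wnt9a (chr11:59306680-59306979): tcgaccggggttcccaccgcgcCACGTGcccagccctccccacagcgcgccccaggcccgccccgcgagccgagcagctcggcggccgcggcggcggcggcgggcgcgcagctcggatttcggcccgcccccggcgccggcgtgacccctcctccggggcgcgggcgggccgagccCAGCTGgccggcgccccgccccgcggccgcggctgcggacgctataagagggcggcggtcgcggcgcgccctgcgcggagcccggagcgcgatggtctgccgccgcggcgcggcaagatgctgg
Fzd4 (chr7:89404116-89404415): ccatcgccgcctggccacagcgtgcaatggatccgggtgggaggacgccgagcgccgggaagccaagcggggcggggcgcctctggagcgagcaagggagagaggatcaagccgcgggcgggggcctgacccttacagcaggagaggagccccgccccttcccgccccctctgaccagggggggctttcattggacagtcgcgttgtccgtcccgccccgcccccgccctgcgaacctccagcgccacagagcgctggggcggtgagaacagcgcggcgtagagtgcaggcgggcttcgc
Wnt11, upstream start (chr7:98834862-98835161): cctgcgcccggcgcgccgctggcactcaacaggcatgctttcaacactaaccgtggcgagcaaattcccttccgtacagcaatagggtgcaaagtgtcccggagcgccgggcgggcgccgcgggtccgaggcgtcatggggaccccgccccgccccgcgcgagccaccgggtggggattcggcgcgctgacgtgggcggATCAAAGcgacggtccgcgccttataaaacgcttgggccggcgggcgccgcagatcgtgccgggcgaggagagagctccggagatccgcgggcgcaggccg

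Of the 41 members, 27 had promoters in the RefSeq table, 30 in all. The Tcf and Lef core was in 5 of these 30 (16.7%), against 16.9% of 32851 promoters of the same length. The E box was in 20 of 30 (66.7%), against 72.3%. The exact repeat of AGGTCA with 1 base between, which Pparg with its partner Rxr can bind, was in none of the 30, against 0.0396% of all promoters. It was in only 13 of the 32851 promoters, so its absence from 30 says nothing about binding by Pparg. In the printed promoters no matches overlap, and a match or its absence in these 300 bases describes the sequence only.

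The rest of the pathway was described with a list of 61 other genes, of which 53 were tested. Of these, 1 rose and 1 fell (0.799% of all tested genes passed), 51 did not pass, and 9 had an unadjusted p under 0.05 (17.0%, against 9.47%), 6 with higher and 3 with lower means in knockout libraries. The gene that fell was Lgr4, a receptor for R-spondins on chromosome 2 (109917647 to 110014257, plus strand). It had 15.4, 17.7 and 20.8 CPM in knockout libraries and 23.0, 27.7 and 29.8 CPM in control libraries. Every knockout library lay below every control library, as for 2 of the 53 genes, against 1.43% of all tested genes. Lgr4 had a log2 fold change of -0.57 ± 0.09 (adjusted p 0.0199). Its adjusted p was 0.0590 without knockout replicate 3, 0.0524 without knockout replicate 4, 0.0611 without control replicate 4 and 0.293 with counts summed over the library pairs.

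The gene that rose was Tcf7, which encodes a nuclear partner of beta-catenin, on chromosome 11 (52252371 to 52283014, minus strand). It had 8.86, 10.5 and 11.2 CPM in knockout libraries and 5.54, 5.97 and 8.89 CPM in control libraries. All knockout libraries except 1 lay above every control library. Tcf7 had a log2 fold change of 0.62 ± 0.13 (adjusted p 0.0457), and this call was lost in 11 of 12 fits that left out 1 library, all but that without control replicate 2 (0.0484), with adjusted p of up to 0.117, with the mitochondrial share as a covariate (0.0511) and with summed pairs (0.334). Tcf7 overlaps an antisense gene, A630014C17Rik, which had 102 counts against 2155 for Tcf7.

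By role, 8 tested extracellular genes held no call. Apcdd1, a membrane-bound inhibitor of Wnt signals, averaged 8.36 ± 4.03 CPM in knockout libraries and 16.3 ± 5.95 CPM in control libraries (SD, n = 6 each), with a log2 fold change of -0.96 ± 0.29 and an adjusted p of 0.202. Frzb, which is also known as Sfrp3, was among those 8. Of 12 tested co-receptors and receptor regulators, Lgr4 was the single call. Kremen1, a partner of dickkopfs, averaged 107 ± 27.1 CPM in knockout libraries and 81.4 ± 6.98 CPM in control libraries (log2 fold change 0.39 ± 0.14, adjusted p 0.340). The 11 cytoplasmic genes, beta-catenin (Ctnnb1) and the kinases and scaffolds that mark it for breakdown among them, had log2 fold changes between -0.08 and 0.14 and no call. The 8 tested polarity genes had no call and values between -0.37 and 0.20.

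Of 14 tested nuclear and feedback genes, Tcf7 was the single call. Lef1, another partner of beta-catenin, averaged 0.841 ± 0.321 CPM in knockout libraries and 0.421 ± 0.154 CPM in control libraries, on 163 counts in all (log2 fold change 1.02 ± 0.32, adjusted p 0.219). Tcf7l2, of the same family, averaged 28.3 ± 2.39 CPM in knockout libraries and 33.3 ± 2.13 CPM in control libraries. Every knockout library was below every control library for Tcf7l2, yet the adjusted p was 0.186 (log2 fold change -0.23 ± 0.07). Axin2, the most used readout of beta-catenin signalling, averaged 3.16 ± 1.29 FPKM in knockout libraries and 2.44 ± 0.43 FPKM in control libraries and did not pass.

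**Figure D5:**
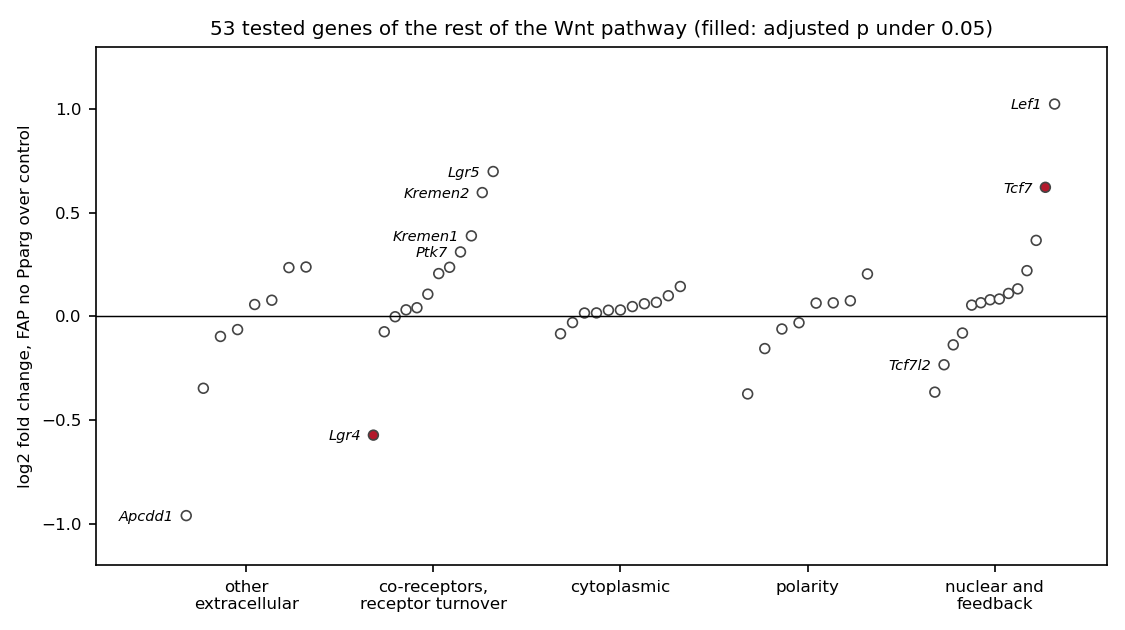
Log2 fold change, knockout over control, of the 53 tested genes of the rest of the Wnt pathway, by role and ordered by value within a role. Filled points passed the adjusted threshold (Lgr4 at -0.57 and Tcf7 at 0.62), and names mark the 9 genes with an unadjusted p under 0.05.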

How the data were processed

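RNA was measured in 12 whole-muscle libraries, 6 knockout and 6 control. The submitters' processing notes name HISAT2 2.0.5, fastp and featureCounts as tools and GRCm38 (mm10) as build. One table deposited by the authors gives raw read counts per gene, as whole numbers. Another deposited table gives FPKM values, which follow count over gene length within a library. The choice of FPKM denominator and the use of strand in counting are not given in the sources read here, and the labels' protocol covers stranded and unstranded libraries alike.

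For the comparison, edgeR 4.0.16 under R 4.3.3 was run on the counts: filterByExpr defaults (minimum count 10, minimum total 15), which left 16393 of 54532 genes, TMM scaling, and robust quasi-likelihood F tests of knockout against control with p-values adjusted across these genes by Benjamini-Hochberg (threshold 0.05). A positive log2 fold change means higher in knockout, and its standard error (SE) was obtained by way of the F statistic. TMM library sizes underlie the CPM values. Simulated counts served to test this step. Alternatives were RLE and upper quartile scaling, DESeq2 1.42.0, limma-voom (limma 3.58.1), no filter beyond a total of 1 count, a mean CPM of 1, a replicate block, log2(FPKM + 1) with limma, and each library left out. Alternatives chosen after seeing the data were a covariate for the mitochondrial share, counts summed over library pairs and each pair left out.

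The members, the lists and the tests were chosen with earlier results of these data known. Every member is named. Full values are given for members past the threshold or with an unadjusted p under 0.05 and for the 4 tested members of each family with the highest mean FPKM (or all, where fewer were tested). Of other pathway genes, those past the threshold are named, and beyond the rule a few more for their role or their values, which had been seen. Counts of same-group libraries differed by 12.9 to 157 times the sampling noise (chi-square per degree of freedom), so none was counted as a duplicate. Of the 30 tested members, 11 overlap another gene in the annotation. Of 41 transcripts checked, 7 share a 50-base word with another gene, at most 3.85% of words (Wnt4).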

Additional observations from a re-analysis of the deposited data

Results flagged for a closer look

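In 2 of 40 groups of 6 libraries examined for the members described in full, 1 library lay far from the others (gap over range above 0.625, a size that chance gives about once in 20 groups). Wnt5a had 21.5 CPM in control replicate 6, with a gap to the next control library of 0.685 of the group's range. Wnt16 had 1.23 CPM in control replicate 4, with a gap of 0.667 of the range.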

How the results depend on the processing

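No member passed the threshold under RLE or upper quartile scaling, without a count filter, with a mean CPM of at least 1, on FPKM, with the replicate block, with the mitochondrial covariate or with summed pairs. Wnt9a alone passed with DESeq2 (1 member) and with limma-voom (1 member). With each library left out the count of members was 0 to 1, and with each library pair left out 0 to 2. The highest was without knockout replicates 1 and 2 (Wnt9a and Fzd10), where 406 of 16714 tested genes passed. Over all genes the count was 387 with DESeq2, 389 with limma-voom, 236 with the replicate block and 0 with counts summed over library pairs, where 1127 genes had an unadjusted p under 0.05, 2 of them members. It was 200, 214, 6, 9, 77 and 35 without knockout replicates 1 to 6 and 65, 24, 72, 12, 90 and 126 without control replicates 1 to 6, and 0 to 406 without a pair. Of the other pathway genes, 1 passed with the mitochondrial covariate, 0 with summed pairs and 3 with DESeq2, which added Apcdd1; 0 to 2 passed without a library and 0 to 4 without a pair. Lgr4 passed in 1 and Tcf7 in 0 of the 5 fits without a pair.

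Directions turned for members with small fold changes, none of which passed. With limma-voom the log2 fold change was -0.041 for Dkk3 and 0.016 for Rspo3; with the mitochondrial covariate it was -0.0030 for Wnt5a, -0.17 for Sfrp1 and -0.023 for Rspo2. With libraries or pairs left out it spanned -0.11 to 0.25 for Wnt5a, -0.029 to 0.60 for Wnt4, -0.21 to 0.059 for Fzd1, -0.16 to 0.19 for Sfrp1, -0.038 to 0.41 for Dkk3, -0.42 to 0.030 for Dkk2, -0.31 to 0.0080 for Rspo3 and -0.18 to 0.53 for Rspo2. The cause was not tested. The replicate block left the member count at 0. Deviations of same-numbered libraries correlated between -0.13 and 0.46, with 1 of 6 closest to its own number, so the numbers were not taken as pairing. Genes with few counts, such as Wnt16, limit what the depth can show.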
